A study of Rattus norvegicus with 84 samples.

Results

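Extracellular matrix and scar genes are described here across the RNA of extracellular vesicles (EVs) from the brain and blood plasma of rats after ischemic stroke. The set holds 10 genes chosen by symbol, with earlier results of these data known: Col1a1, Col1a2, Col3a1, Col4a1, Col4a2, Fn1, Sparc, Timp1, Lum and Dcn. All 10 were found among the 18782 annotated genes of the deposited mRNA count table. Because of that choice, shares of all genes set beside counts of the set are descriptions and not tests. After an injury to the brain, cells along blood vessels, cells of the meninges and reactive astrocytes lay down and remodel a matrix that walls off the damaged area. Fibrillar collagens give that matrix its tensile fibres, type IV collagen forms the sheet of the vascular basement membrane, fibronectin and SPARC link cells to collagen, TIMP1 blocks the metalloproteinases that digest it, and the small leucine-rich proteoglycans lumican and decorin bind collagen fibrils and set their spacing.

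The study sequenced mRNA and miRNA of EVs from both sources of each rat, with and without human neural stem cells (hNSCs). All rats were wild-type male Sprague-Dawley rats of 8 to 12 weeks. The 7 groups held 3 rats each, 21 rats in all. Healthy rats had no stroke, and the others had a 90 min transient occlusion of the middle cerebral artery. Stroke rats received 200000 hNSCs (hNSCs groups) or saline (control groups) into the carotid artery on day 3. They were sampled 4, 10 or 31 days post-stroke, which is 1, 7 or 28 days after the injection. Brain EVs of stroke rats came from the ischemic hemisphere. There was no sham-operated group, healthy rats were sampled at a single time, and no healthy rats received hNSCs, so surgery and stroke cannot be told apart. Each control group at days 4, 10 and 31 was compared with the same 3 healthy rats, and these comparisons therefore share their reference libraries. Reads were aligned to the rat genome, and transcripts of the human cells that match it cannot be told apart from rat transcripts. The label of the extraction step speaks of serum where the other labels speak of plasma, the word used here.

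The brain and plasma libraries differed in how much of their counts fell on annotated genes. Brain libraries held 13221461 to 37651652 counts in all, of which 3.18 to 51.9% were on annotated genes, or 569136 to 15587216 counts. The annotated share of brain counts (mean ± SD, n = 3) was 13.9 ± 6.91% in healthy rats, 23.5 ± 1.65%, 12.3 ± 1.03% and 38.2 ± 6.89% in control rats at days 4, 10 and 31, and 15.7 ± 5.00%, 9.36 ± 6.94% and 39.2 ± 11.4% in hNSCs rats at the same days. The share was thus lowest at day 10 and highest at day 31 with either treatment, and its part in the results below was not tested. Plasma libraries held 11878367 to 49824782 counts, 45.1 to 75.6% of them annotated, or 6357675 to 31028559 counts. Levels below are CPM, counts scaled to a common total of annotated counts with TMM factors, unless FPKM, a level per transcript length, is named.

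The tissue labels were checked against 14 lists of cell type markers. In brain EVs the neuron list (12 of 12 genes, Map2 the most abundant) summed to group means of 9298 CPM in healthy rats and 5429.5, 4990.1 and 8353 CPM in control rats at days 4, 10 and 31. The oligodendrocyte list (8 of 8, Mbp) summed to 2068 to 6633 CPM and the astrocyte list (9 of 9, Gfap) to 1637 to 4646 CPM over the healthy and control groups. In plasma EVs the neuron list summed to 3.16 to 17.4 CPM over the same groups with Gad2 at 0. The red cell list (8 of 8, Hba2), the liver list (9 of 9, Alb) and the platelet list (8 of 8, Pf4) summed to group means of 16966 to 150815, 3549 to 20320.4 and 1502 to 9514 CPM. The oligodendrocyte and astrocyte lists summed to 96.9 to 282 and 46.7 to 145 CPM in plasma. All 3 neural lists were thus lower in the plasma source, and the neuron list was near 0 there. In these bulk samples, fewer cells of a type and less RNA per cell cannot be told apart.

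All 10 genes were detected in both sources, and all 10 passed the filter on low counts, among 14515 genes tested in brain and 14720 in plasma. Per length, the order of the brain medians over 21 libraries ran from Sparc at 10.8 FPKM (quartiles 5.41 to 18.3) through Col3a1 at 3.29, Col1a2 at 2.28, Col4a2 at 2.16, Col4a1 at 2.14, Col1a1 at 1.86, Fn1 at 0.504, Timp1 at 0.186 and Dcn at 0.0817 to Lum at 0.0200 FPKM. No neighbours in that order differed beyond their spread: the quartile ranges of each adjacent pair overlapped. The medians pool all 7 groups. In healthy rats alone the brain means were 3.37 FPKM for Sparc, 1.43 for Col4a2, 1.11 for Col4a1, 0.550 for Col1a2, 0.516 for Col3a1 and 0.382 for Col1a1, so that the type IV chains stood above the fibrillar chains there. Lum was at 0 in 10 of the 21 brain libraries, Dcn in 9, Timp1 in 4 and Fn1 in 1. In plasma the order was Sparc at 42.0 FPKM (quartiles 30.5 to 63.2), Col3a1 at 35.6, Dcn at 18.5, Fn1 at 15.4, Col1a1 at 7.64, Col1a2 at 7.46, Lum at 5.46, Col4a1 at 2.99, Col4a2 at 1.64 and Timp1 at 0.625 FPKM. There the quartile ranges of neighbours overlapped except between Fn1 (11.4 to 25.8) and Col1a1 (6.53 to 9.06), and between Col4a1 (2.33 to 4.49) and Col4a2 (1.12 to 2.14). Dcn and Lum, the lowest genes of the set in brain EVs, stood in the upper and middle part of the plasma order. The difference between the sources was not tested.

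Chains that are built into the same collagen molecule had similar levels per length in brain EVs. Type I collagen joins Col1a1 and Col1a2 chains, and the ratio of their FPKM had a median of 0.803 (0.522 to 1.24, n = 21 libraries). Type IV collagen of the basement membrane joins Col4a1 and Col4a2 chains, with a ratio of 0.998 (0.642 to 1.75) in brain. By group, the brain Col4a1 to Col4a2 ratio had a median of 0.780 (0.642 to 1.07) in healthy rats, 1.44 (0.998 to 1.47) in control rats at day 4, 0.865 (0.809 to 1.16) at day 10 and 0.979 (0.951 to 1.01) at day 31, and the control ranges at each day overlapped the healthy one. With hNSCs it was 1.64 (1.10 to 1.75) at day 4, above the healthy range, and 0.992 (0.739 to 1.44) at day 10 and 0.949 (0.814 to 1.14) at day 31, both overlapping it. In plasma the type I ratio was 1.12 (0.458 to 2.63) and the type IV ratio 2.26 (0.752 to 6.46), so that the plasma spread was wider than the brain spread for both pairs. The plasma Col3a1 to Col1a1 ratio was 4.69 (0.973 to 17.6), with a median of 1.90 (0.973 to 3.41) in healthy rats and medians of 4.30 to 5.56 in the 6 stroke groups. Differences in ratios between groups were not tested.

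In brain EVs of control rats 4 days after stroke, Fn1 rose. The fibrillar collagens, Col4a1, Sparc and Timp1 read higher in all 3 control libraries than in all 3 healthy ones, without passing the main edgeR test. By day 31, Col4a1 fell below its day 4 level. A gene was called when edgeR's adjusted p, taken over all genes tested, was under 0.05 and the fold over 1.5. At day 4, 1 of 10 genes (Fn1) was called higher, against 0.992% of all genes called in either direction. At that day 8 of 10 were higher at an unadjusted edgeR p under 0.05, against 8.49% of all genes higher and 6.41% lower. DESeq2 called 5 against 5.83%, and limma on log2(FPKM + 1) called 5 against 2.11%, where the shares of both tools here and below are of all genes called in either direction. The libraries of 7 genes did not overlap, all higher, against 13.9% of all genes. The median log2 fold change of the set was 2.21, beside 0.05 over all genes.

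At day 10 edgeR called 0 of 10 against 0.544% of all genes, with 7 of 10 at an unadjusted p under 0.05, all higher, against 7.54% higher and 5.22% lower. DESeq2 called 6 against 4.22% of all genes, and limma 0 against 0%. Col1a2, Fn1 and Sparc did not overlap healthy libraries, 3 of 10 against 7.05% of all genes, and the median log2 fold change was 2.33 beside 0.00 over all genes. Control day 10 replicate 1 read low in most of the set, and without it edgeR called 4 of 10 higher against 1.90% of all genes: Col1a1 (log2 fold change 2.95, adjusted p 0.00618), Col1a2 (2.54, 0.0130), Col3a1 (3.25, 0.00618) and Sparc (1.60, 0.0136). Over all alternatives the adjusted p of Sparc at day 10 ran from 0.0136 to 1.

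At day 31 edgeR called 0 of 10 against 0.00689% of all genes, with 4 genes higher and 2 lower at an unadjusted p under 0.05 against 5.35% and 1.96%. DESeq2 called 0 against 1.21% of all genes, and limma on log2(FPKM + 1) called 5 of 10 against 57.3%, so that its share of the set was no larger than its share of all genes. On that FPKM scale the median of all genes was itself shifted by 0.69 log2, and it was shifted by 0.24 in the edgeR fit, beside a median of 1.32 over the set. Col1a2, Fn1, Sparc, Lum and Dcn did not overlap, 5 of 10 against 18.9% of all genes. Over all days, edgeR called 0 of 10 against 0.276% of all genes, with 6 of 10 higher at an unadjusted p under 0.05 against 7.03% higher and 5.42% lower, while DESeq2 called 6 against 4.79% and limma 5 against 3.82%. Col1a2, Fn1 and Sparc were higher in 9 of 9 control libraries than in all 3 healthy ones, 3 of 10 against 2.62% of all genes. Without control day 10 replicate 1, edgeR called 5 of 10 higher over all days against 1.36% of all genes: the 4 named at day 10 and Fn1 (log2 fold change 2.54, adjusted p 0.0395).

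From day 4 to day 31 in control rats, edgeR called 1 of 10 genes lower (Col4a1) against 0.324% of all genes called in either direction. In all, 3 were lower at an unadjusted p under 0.05 against 3.04% of all genes lower and 6.52% higher, DESeq2 called 2 against 1.68%, and limma 0 against 28.5%. The median log2 fold change was −1.28 beside 0.11 over all genes, and 9 of 10 genes had a log2 fold change below 0. Col1a1, Col4a1, Col4a2, Fn1, Sparc and Timp1 did not overlap, 6 of 10 lower against 10.1% of all genes.

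**Figure D1:**
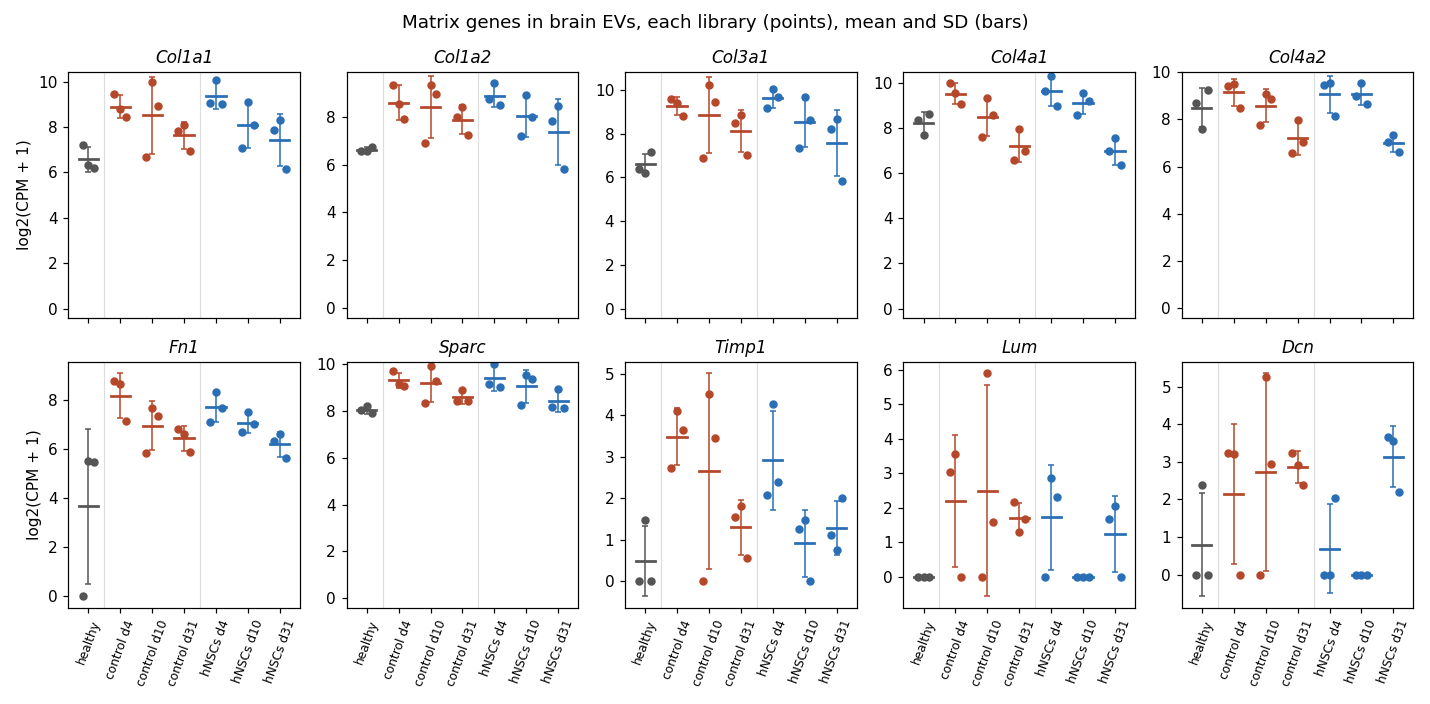
Level of each of the 10 genes in every brain EV library, as log2(CPM + 1) on the vertical axis and group on the horizontal axis; points are libraries, bars the mean and SD of 3. Fn1 stood at 0, 45.4 and 43.3 CPM in healthy rats and 438.5, 404 and 139 CPM in control rats at day 4.

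Col1a1, Col1a2 and Col3a1 encode the chains of the fibrillar collagens I and III, the main fibres of scar tissue. In brain EVs Col3a1 read 83.3, 73.7 and 142 CPM in healthy rats, 769.96, 672 and 440.3 CPM in control rats at day 4, 117, 1177 and 696 CPM at day 10, and 356, 454 and 130.1 CPM at day 31. All day 4 values stood above the healthy range, while 1 library at day 10 and 1 at day 31 lay inside it. Col1a1 read 145, 78.3 and 72.8 CPM in healthy rats, then 696, 445 and 344 CPM at day 4, 100.1, 1017 and 479.8 CPM at day 10, and 229, 274 and 122 CPM at day 31. Its day 10 libraries spanned the widest range, with replicate 1 inside the healthy range and replicate 2 the highest of all control libraries. Col1a2 read 94.0, 92.9 and 107 CPM in healthy rats, 648, 366 and 239 CPM at day 4, 119, 630.8 and 493 CPM at day 10 and 249, 342 and 148 CPM at day 31. No control library of Col1a2 reached down to the healthy range at any day.

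The 3 fibrillar chains read 4.26 to 6.30 times the healthy mean at day 4. In the main edgeR fit the log2 fold change was 2.65 for Col3a1 (SE 0.75, adjusted p 0.0946, higher in 3 of 3). It was 2.34 for Col1a1 (SE 0.67, adjusted p 0.0986, 3 of 3) and 2.09 for Col1a2 (SE 0.60, adjusted p 0.0961, 3 of 3). None of the 3 passed the threshold there. At day 10 the values were 2.73 (adjusted p 0.122), 2.44 (adjusted p 0.122) and 2.08 (adjusted p 0.137), and at day 31 they were 1.65 (adjusted p 0.614), 1.09 (adjusted p 0.962) and 1.33 (adjusted p 0.614) in edgeR. From day 4 to day 31 edgeR called none of the 3, with log2 fold changes of −1.25 for Col1a1 (adjusted p 0.622), −1.002 for Col3a1 (0.990) and −0.76 for Col1a2 (1). Day 10 against day 4 was not tested. At day 4 against healthy rats, edgeR with equal replicate numbers treated as pairs called all 3 (adjusted p 0.0405 for Col3a1, 0.0358 for Col1a1 and 0.0487 for Col1a2). It also did so with only the libraries of the groups compared (0.00276, 0.00646 and 0.00832). The rats treated as pairs share only a replicate number. Deviations of their libraries from the group means correlated at −0.034, −0.075 and −0.009 for these groups. Against healthy rats DESeq2 called all 3 at day 4 (adjusted p 0.0181 for Col3a1, 0.0101 for Col1a1 and 0.0136 for Col1a2) and at day 10 (0.0118, 0.00431 and 0.0118) and none at day 31. limma on log2(FPKM + 1) called Col3a1 (adjusted p 0.0421) and Col1a1 (0.0468) at day 4, none at day 10 and all 3 at day 31 (0.00263, 0.00436 and 0.00187). At day 31 that limma fit called 57.3% of all genes. Over all alternatives in edgeR, DESeq2 and limma the adjusted p of the 3 ran from 0.00276 to 0.364 at day 4, 0.00431 to 1 at day 10 and 0.00187 to 1 at day 31.

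Col4a1 and Col4a2 encode the chains of type IV collagen, the network of the basement membrane around brain vessels. Col4a1 read 325, 207 and 395 CPM in healthy rats, 1008, 742 and 534 CPM in control rats at day 4, 192.5, 644 and 384 CPM at day 10, and 95.4, 249 and 127 CPM at day 31. The day 4 libraries lay above every healthy library, the day 10 libraries spread around them, and at day 31 2 of the 3 lay below them. Between days 4 and 31 Col4a1 fell 4.85-fold, with a log2 fold change of −2.28 (SE 0.45, edgeR adjusted p 0.0210, lower in 3 of 3). That call was lost without control day 4 replicate 1 (adjusted p 0.141) or replicate 2 (0.0880), and without control day 31 replicate 1 (0.185) or replicate 3 (0.207). It was also lost without the 5 brain libraries with the fewest annotated counts (0.0520), and in limma on log2(FPKM + 1) (0.0557) or log2(FPKM + 0.1) (0.132). In the edgeR fits that lost it the log2 fold change was −2.02 to −2.29. The adjusted p ran from 0.000216 to 0.207 over all alternatives in edgeR, DESeq2 and limma.

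Col4a2 read 409, 190.5 and 606 CPM in healthy rats, 688, 731 and 356 CPM at day 4, 218, 546 and 467 CPM at day 10, and 93.2, 249.8 and 131 CPM at day 31. The day 31 libraries lay below every day 4 library and overlapped the healthy ones. The log2 fold change from day 4 to day 31 was −1.91 (3.74-fold lower, SE 0.45, edgeR adjusted p 0.0710, lower in 3 of 3), and it passed without control day 31 replicate 2 (log2 fold change −2.41, adjusted p 0.0431) and in DESeq2 (adjusted p 0.00558), in a range over all alternatives of 0.00558 to 0.471. Against healthy rats at day 31, Col4a1 had a log2 fold change of −0.98 (edgeR adjusted p 0.602) and Col4a2 of −1.35 (edgeR adjusted p 0.452), while at day 4 they stood at 1.30 (edgeR adjusted p 0.143, higher in 3 of 3) and 0.56 (edgeR adjusted p 0.711). At day 4 limma on log2(FPKM + 1) called Col4a1 (adjusted p 0.0323, in a range over all alternatives of 0.0323 to 0.409).

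The type IV pair, lower at day 31 than at day 4 in all control libraries, is also paired in the genome. Promoter windows of 250 bases before to 50 after the start were found in RefSeq (build GRCr8) for 6 of the 10 genes: Col1a2, Col4a1, Col4a2, Sparc, Timp1 and Lum. Col4a1 on the + strand and Col4a2 on the − strand start 77 bases apart and head away from each other, so their windows share 176 bases, chr16:84885471-84885646. The shared stretch is shown, + strand, 5′ to 3′, because both genes start within it. Capitals mark the only CCAAT of the stretch on either strand, read there as ATTGG.
Col4a1 and Col4a2 shared promoter: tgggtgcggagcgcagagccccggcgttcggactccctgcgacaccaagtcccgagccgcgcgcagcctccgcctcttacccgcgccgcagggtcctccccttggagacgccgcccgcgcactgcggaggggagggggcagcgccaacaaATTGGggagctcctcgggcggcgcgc
CCAAT, searched on both strands, was in 37.5% of 33469 promoter windows, and in 25.1% of them within the same 176-base part of the window. Among the other windows of the set, Col1a2 and Lum held it once each on the other strand, and Sparc and Timp1 held none.

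Fn1 encodes fibronectin, a glycoprotein that leaks in from plasma and is also made locally as a scaffold for collagen. In brain EVs it read 0, 45.4 and 43.3 CPM in healthy rats, 438.5, 404 and 139 CPM in control rats at day 4, 56.2, 205 and 163.5 CPM at day 10, and 114, 96.9 and 57.7 CPM at day 31. Every control library at every day stood above every healthy library, and the day 4 libraries above those of day 31. At day 4 Fn1 rose 11.1-fold over the healthy mean, with a log2 fold change of 3.42 (SE 0.77, edgeR adjusted p 0.0338, higher in 3 of 3). The call was lost without control day 4 replicate 1 (adjusted p 0.148) or replicate 2 (0.0951) and without healthy replicate 1 (0.0714), 2 (0.0689) or 3 (0.110). It was also lost with no filter on low counts (0.0544) and with unannotated entries kept (0.0508). In these fits the log2 fold change was 2.86 to 3.80. The call held without control day 4 replicate 3 (0.0292). The adjusted p ran from 0.000139 to 0.148 over the alternatives in edgeR, DESeq2 and limma. At day 10 the log2 fold change was 2.22 (SE 0.74, edgeR adjusted p 0.213, 3 of 3), and from day 4 to day 31 it was −1.87 (SE 0.72, edgeR adjusted p 0.306, lower in 3 of 3). DESeq2 called Fn1 at day 10 (adjusted p 0.0325, range over the alternatives 0.0325 to 1), and limma on log2(FPKM + 1) called it at day 31 (0.00668, range 0.00484 to 1). At day 31 that limma fit called 57.3% of all genes.

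Sparc encodes a collagen-binding glycoprotein of endothelial cells and glia. It read 261, 301 and 241 CPM in healthy rats, 829.5, 576 and 534 CPM in control rats at day 4, 329, 973 and 626 CPM at day 10, and 349, 472 and 342 CPM at day 31. The healthy libraries were close together and all 9 control libraries were above them, the nearest being day 10 replicate 1. From healthy rats, the log2 fold change was 1.27 at day 4 (SE 0.37, edgeR adjusted p 0.0893, 3 of 3) and 1.27 at day 10 (SE 0.37, edgeR adjusted p 0.132, 3 of 3). It was 0.54 at day 31 (edgeR adjusted p 1, 3 of 3), and the main edgeR fit called none of them. At day 4 edgeR did call Sparc with equal replicate numbers treated as pairs (adjusted p 0.0341) and with only the libraries of the groups compared (0.0159). The rats treated as pairs share only a replicate number. DESeq2 called Sparc at days 4 (adjusted p 0.0319) and 10 (0.0255), and limma on log2(FPKM + 1) at days 4 (0.0458) and 31 (0.00124). At day 31 that limma fit called 57.3% of all genes. Over all alternatives in edgeR, DESeq2 and limma the adjusted p ran from 0.0159 to 0.346 at day 4, 0.0136 to 1 at day 10 and 0.00124 to 1 at day 31.

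Timp1 encodes a secreted inhibitor of metalloproteinases that is induced in reactive astrocytes. It read 0, 1.77 and 0 CPM in healthy rats, 5.65, 16.1 and 11.5 CPM in control rats at day 4, 0, 21.9 and 9.97 CPM at day 10, and 1.91, 2.51 and 0.473 CPM at day 31. All day 4 libraries were above the healthy ones, from 33, 54 and 53 counts against 0, 8 and 0, and 1 day 10 library was at 0. The log2 fold change at day 4 was 4.04 (SE 1.89, edgeR adjusted p 0.310, 3 of 3), with the widest error of the genes above, and limma called it on log2(FPKM + 0.1) only (adjusted p 0.0349, in a range over the alternatives of 0.0349 to 0.623). Timp1 lies inside Syn1 in RefSeq, and Syn1 had a brain median of 495 CPM (232 to 685) where that of Timp1 was 1.91. Timp1 was at 0 in 4 of 21 brain libraries, while Syn1 was at 232 CPM or more in all of them. In plasma EVs Syn1 had a median of 0 CPM (0 to 16.3), and Timp1 reached 21.95 CPM. The strand setting of the counts is not stated.

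Lum and Dcn encode the small leucine-rich proteoglycans lumican and decorin, and decorin also binds transforming growth factor beta. In brain EVs Lum had no count in any healthy library, 42, 36 and 0 counts (7.19, 10.7 and 0 CPM) in control rats at day 4, 0, 127 and 3 counts (0, 59.2 and 1.99 CPM) at day 10, and 3.51, 1.45 and 2.21 CPM at day 31. A single library, control day 10 replicate 2, held most of the day 10 counts, and only at day 31 were all 3 libraries above 0. Against a floor of 3 counts over the healthy group, Lum was at least 18.8-fold higher at day 4, at least 64.3-fold at day 10, at least 7.54-fold at day 31 and at least 30.2-fold over all days. These floors cover counting error only. DESeq2 called Lum at day 10 (adjusted p 0.0296, in a range over the alternatives of 0.0296 to 1) and over all days (0.0482). The bound at day 4 was 11.3 without control day 4 replicate 2, 28.2 without control day 4 replicate 3, 9.85 without healthy replicate 2 and 11.8 without healthy replicate 3. At day 10 it was 33.6 and 40.2 without healthy replicate 2 or 3, and 96.5 without control day 10 replicate 1. Without control day 10 replicate 2 only 3 counts remained, which gives no fold. At day 31 it was 3.94 and 4.71 without healthy replicate 2 or 3, and over all days 15.8 and 18.9 without those and 10.7 without control day 10 replicate 2.

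Dcn read 0, 4.20 and 0 CPM in healthy rats, 8.39, 8.33 and 0 CPM in control rats at day 4, 0, 37.3 and 6.65 CPM at day 10, and 8.44, 6.59 and 4.25 CPM at day 31. Single libraries at 0 overlapped the healthy ones at days 4 and 10, and control day 10 replicate 2 was again the highest. In edgeR the log2 fold change was 1.90 at day 4 (edgeR adjusted p 0.861), 3.29 at day 10 (edgeR adjusted p 0.631) and 2.11 at day 31 (edgeR adjusted p 1, higher in 3 of 3), where limma on log2(FPKM + 0.1) called it (adjusted p 0.0104, in a range over the alternatives of 0.0104 to 1). At day 31 that limma fit called most of all genes, a share given below. Col4a1 and Dcn overlap long noncoding RNAs in RefSeq that the count table does not hold, and Col1a1 overlaps Sgca, which had a median of 0 CPM.

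In rats given hNSCs, the brain EV levels of the set overlapped those of control rats for every gene at every day. These 0 of 10 stood against 2.62% of all genes with no overlap and higher and 6.82% lower at day 4, 1.61% and 7.08% at day 10 and 3.29% and 2.66% at day 31. Col3a1, for one, read 573, 1059 and 805 CPM at day 4, 161, 805 and 393 CPM at day 10 and 293, 411 and 56.7 CPM at day 31 with hNSCs. Fn1 read 138, 321 and 205 CPM, 103, 182 and 128 CPM, and 80.9, 97.3 and 48.5 CPM at those days, and Col4a1 795, 1252 and 507 CPM, 378, 748 and 590.3 CPM, and 125, 189 and 80.7 CPM. For Fn1, Col4a1 and Col4a2 all hNSCs libraries of day 31 lay below those of days 4 and 10. Levels of hNSCs rats at different days were not tested against each other, and the share of all genes with that order was not counted. edgeR called 0 of 10 genes at day 4, day 10, day 31 and over all days, against 0% of all genes (0, 0, 0 and 0% in turn), and DESeq2 and limma also called 0 in each. At an unadjusted p under 0.05, edgeR had 0 of the set at day 4, 2 at day 10 (Lum and Dcn, both lower), 0 at day 31 and 2 over all days (Lum and Dcn). Over all genes, the edgeR share at that level was 7.64% in either direction at day 4, 10.8% lower at day 10, 0.0827% in either direction at day 31 and 6.68% lower over all days. DESeq2 called 41 genes higher and 179 lower at day 4 (1.52% of all genes), 51 and 585 at day 10 (4.38%), 0 at day 31 (0%) and 21 and 321 over all days (2.36%), and limma called 0%.

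The set's median log2 fold change with hNSCs was 0.05 at day 4, −0.52 at day 10, −0.24 at day 31 and −0.17 over all days, beside medians over all genes of −0.12, −0.34, 0.00 and −0.20. At day 10 the set and all genes were thus both shifted below 0, and the set's own difference is to be read against that shift. Lum and Dcn had no count in the 3 hNSCs libraries of day 10, where control rats had 0, 127 and 3 counts of Lum and 0, 80 and 10 of Dcn. With the floor of 3 counts over the hNSCs group, Lum was at least 31.3-fold lower and Dcn at least 22.5-fold lower (edgeR unadjusted p 0.0140 and 0.0146, adjusted p 0.325 for both), and control day 10 replicate 1, also at 0, overlapped. Without control day 10 replicate 2 Lum had 3 counts and no fold, and Dcn was at least 5.11-fold lower. Without hNSCs day 10 replicate 1 the bounds were 12.2 and 8.74, and without control day 10 replicate 1 they were 47.0 and 33.7. The 3 hNSCs libraries of day 10 held 2955945, 1123445 and 569136 annotated counts, and the 3 control libraries of that day 2317700, 2258483 and 1500439. The part of this depth in the counts of 0 was not tested.

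Whether the hNSCs difference itself changed between days was tested for each pair of days. In brain, edgeR's adjusted p for the 10 genes was at least 0.558 between days 4 and 10, 1 between days 4 and 31 and at least 0.783 between days 10 and 31. Lum between days 4 and 10, and Lum and Dcn between days 10 and 31, were the only genes of the set with an unadjusted p under 0.05 there (0.0450, 0.0377 and 0.0260).

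Several marker lists moved with the set in brain EVs and the neuron list against it. Their part in the results was not tested. The neuron list summed to 8851 to 10160 CPM in healthy rats. Control libraries were all below that at day 4 (3908 to 6765 CPM) and day 10 (2337 to 7831 CPM), and overlapped at day 31 (7195 to 9741 CPM). The microglia and macrophage list (12 of 12 genes, C1qa the most abundant, none at 0 throughout) summed to 86.1, 86.7 and 87.4 CPM in healthy rats, 1456, 872 and 594 CPM in control rats at day 4, 216, 1963 and 900.5 CPM at day 10 and 333, 430.1 and 221 CPM at day 31. With hNSCs it summed to 806, 1619 and 894 CPM, 274, 1052 and 398 CPM, and 306.5, 442 and 148.5 CPM at those days. Control day 10 replicate 1 was the lowest of its group in this list as in most of the set, and replicate 2 the highest. The endothelial list (9 of 10 in the table, Vwf) summed to 155, 226 and 252 CPM in healthy rats, 582, 449 and 317 CPM at day 4, 209.9, 387 and 142 CPM at day 10 and 208, 204 and 158 CPM at day 31 in control rats. The pericyte and smooth muscle list (10 of 10, Myh11) summed to 283, 321 and 373 CPM in healthy rats, then 792, 538 and 476 CPM, 268, 695 and 311 CPM, and 405, 393 and 277 CPM. Both vascular lists were above all healthy libraries at day 4 only, as Col4a1 was. So was the oligodendrocyte list (8 of 8, Mbp, none at 0 throughout), at 2903, 3157 and 2683 CPM in healthy rats, 6428.5, 4455 and 3958 CPM at day 4, 2959, 12657.5 and 4284 CPM at day 10 and 2055, 2246 and 1904 CPM at day 31 in control rats. At day 31 this list was below all healthy libraries. The astrocyte list (9 of 9, Gfap, none at 0 throughout) summed to 1532, 1739 and 1641 CPM in healthy rats, 4080.5, 3865 and 4233 CPM at day 4, 2928, 4214 and 3262 CPM at day 10 and 4323, 5393 and 4222 CPM at day 31 in control rats. With hNSCs it summed to 3862, 5582 and 3269 CPM, 2529, 3705 and 3554 CPM, and 4146, 5770.5 and 2363 CPM at those days. All 18 stroke libraries were above every healthy one in the astrocyte list. Single genes held much of some of these differences. By healthy and control day 4 means, Vwf held 64.7 and 281 of the 211 and 450 CPM of its list. Gfap held 589 and 2795 of 1637 and 4059 CPM. Mbp held 1839 and 3538 of 2914 and 4947 CPM, and 942 of 2068 CPM at day 31. Myh11 (237 and 342 of 326 and 602 CPM) and C1qa (19.1 and 131 of 86.8 and 974 CPM) held less of theirs.

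The fibroblast list (12 of 12 in the table, Thy1 the most abundant, Dpep1 and Tcf21 at 0 throughout) summed to 343, 550.6 and 279.7 CPM in healthy rats, 396, 326 and 355 CPM at day 4, 338.5, 339.6 and 255 CPM at day 10 and 434, 340.0 and 510.2 CPM at day 31 in control rats. The full sums overlapped the healthy ones at each day. Thy1, which is also expressed by neurons, read 253, 396 and 185 CPM of them in healthy rats and 89.8, 114 and 186 CPM in control rats at day 4. Without Thy1 the list summed to 90.4, 155 and 94.7 CPM in healthy rats, 306, 212 and 169 CPM at day 4, 120.1, 260.4 and 95.0 CPM at day 10 and 246, 168 and 154 CPM at day 31 in control rats. With hNSCs it summed without Thy1 to 162, 265 and 291 CPM, 119, 245 and 212 CPM, and 232, 233 and 112 CPM at those days. Without Thy1, the control sums of day 4 were thus above all healthy ones, as were the fibrillar collagens, while 2 libraries of day 10 and 1 of day 31 overlapped. The full list did not separate at day 4, and sums by library without the most abundant gene are given for this list only. The remaining lists had these healthy, day 4, day 10 and day 31 control means in brain. They were 319, 251, 202 and 304 CPM for choroid plexus (Clic6) and 34.3, 57.5, 38.4 and 73.5 CPM for ependymal cell (Foxj1). Red cell (Hba2) had 311, 150.2, 734 and 482 CPM, and platelet (Pf4, with Ppbp at 0) 0.750, 6.83, 24.6 and 8.12 CPM. The liver list (Ttr, with Apoa2 and Apoc3 at 0) had means of 166, 72.7, 83.2 and 144 CPM. Of these, Ttr, which is also on the choroid plexus list, held 165, 72.7, 83.2 and 140 CPM. The skeletal muscle list (Myh2, with Ckm, Mylpf, Tnni2 and Mb at 0) had 22.4, 14.7, 18.3 and 22.7 CPM, and the T cell list (Lck, with Cd3e, Cd3d and Cd2 at 0) 0, 2.17, 0 and 1.07 CPM.

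In plasma EVs, Dcn was higher in all 9 control libraries than in all 3 healthy ones, Fn1 and Col4a1 were so at day 4, and no gene of the set passed the test in edgeR. At day 4 edgeR called 0 of 10 against 0.0951% of all genes, with 4 of 10 higher at an unadjusted p under 0.05 (Col4a1, Col4a2, Fn1 and Dcn) against 1.43% of all genes higher and 4.57% lower. There DESeq2 called 2 (Dcn and Fn1) against 6.16% of all genes and limma 0 against 0.0418%. Col4a1, Fn1 and Dcn did not overlap, 3 of 10 against 4.06% of all genes. At day 10 edgeR called 0 against 0% of all genes, with 1 (Dcn, higher) at an unadjusted p under 0.05 against 1.18% higher and 4.58% lower, and DESeq2 and limma called 0 against 8.25% and 0.0209%. At day 31 edgeR called 0 against 0%, with 1 (Dcn, higher) at that level against 0.999% higher and 3.94% lower, DESeq2 called 1 (Dcn) against 4.48% and limma 0 against 0.0418%. Dcn was the only gene of the set whose libraries did not overlap, 1 of 10 at day 10 against 3.64% and 1 of 10 at day 31 against 4.34% of all genes.

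Over all days in plasma edgeR called 0 against 0.00679% of all genes, with Dcn alone, higher, at an unadjusted p under 0.05 against 0.876% higher and 8.89% lower. DESeq2 called 1 (Dcn) against 6.15% of all genes and limma 0 against 0.0209%, and 1 of 10 did not overlap against 0.190% of all genes. From day 4 to day 31 edgeR called 0 against 0.190% of all genes, with Col4a1 and Fn1 lower at an unadjusted p under 0.05 against 2.12% lower and 2.69% higher, and DESeq2 and limma called 0 against 6.45% and 0.285%. These 2 of 10 did not overlap, against 4.49% of all genes lower. The set's median log2 fold change from healthy was 1.03 at day 4, 0.30 at day 10, 0.79 at day 31 and 0.78 over all days, beside medians over all genes of −0.12, −0.22, −0.09 and −0.26.

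**Figure D2:**
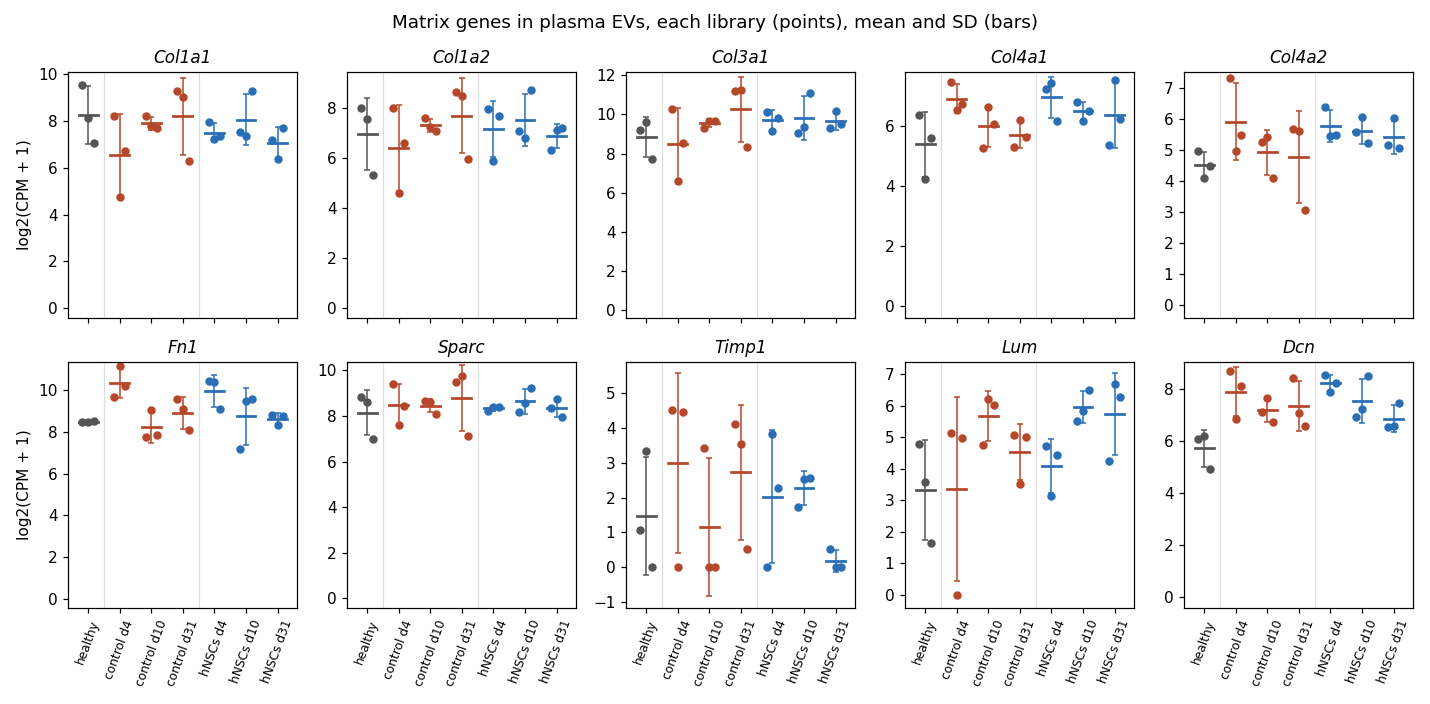
Level of each of the 10 genes in every plasma EV library, as log2(CPM + 1) on the vertical axis and group on the horizontal axis; points are libraries, bars the mean and SD of 3. Dcn stood at 67.1, 71.9 and 29.1 CPM in healthy rats and at 94.6 to 418 CPM in the 9 control libraries.

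The plasma levels of the fibrillar collagens varied widely within groups. Col3a1 read 598, 780.3 and 208 CPM in healthy rats, 1248, 94.8 and 366 CPM in control rats at day 4, 636, 815 and 818 CPM at day 10 and 2349.96, 2409 and 326.5 CPM at day 31. Col1a1 read 750.1, 279 and 134 CPM in healthy rats, 297, 25.6 and 103 CPM at day 4, 295, 222 and 204 CPM at day 10 and 613, 520.2 and 78.2 CPM at day 31. The same library was lowest at day 4 for both genes (replicate 2) and at day 31 for both (replicate 3), and all groups overlapped the healthy one. Col1a2 ranged over 23.2 to 422 CPM in the 21 plasma libraries. The edgeR log2 fold change of Col3a1 at day 31 was 1.68 (adjusted p 0.840, higher in 2 of 3) and that of Col1a1 at day 4 was −1.45 (adjusted p 0.743, lower in 2 of 3).

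Of the type IV chains, Col4a1 read 81.0, 17.7 and 47.1 CPM in plasma of healthy rats, 178.5, 92.1 and 106 CPM in control rats at day 4, 37.7, 98.1 and 66.0 CPM at day 10 and 38.5, 73.2 and 48.8 CPM at day 31. The day 4 libraries were above all healthy and all day 31 libraries, while those of days 10 and 31 overlapped the healthy ones. It had a log2 fold change of 1.37 at day 4 (SE 0.56, 2.58-fold, edgeR adjusted p 0.743, 3 of 3) and −1.23 from day 4 to day 31 (edgeR adjusted p 0.794, lower in 3 of 3). Col4a2 read 30.3, 16.2 and 21.4 CPM in healthy rats and 158, 30.2 and 43.5 CPM at day 4 (log2 fold change 1.77, SE 0.70, edgeR adjusted p 0.743, higher in 2 of 3). Replicate 2 of day 4 was just below the highest healthy library.

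Fn1 read 349, 358 and 365 CPM in plasma of healthy rats, a narrow range, then 811, 2259 and 1178 CPM in control rats at day 4, 215, 529.8 and 227 CPM at day 10 and 748, 534 and 267 CPM at day 31. Only the day 4 libraries were all above the healthy ones. The log2 fold change at day 4 was 1.99 (SE 0.55, 3.96-fold, edgeR adjusted p 0.387, 3 of 3, DESeq2 adjusted p 0.00775, range over the alternatives 0.00775 to 0.938), and from day 4 to day 31 it was −1.46 (edgeR adjusted p 0.794, lower in 3 of 3). By group mean of control rats, Fn1 was thus highest at day 4 in both brain and plasma EVs, and whether the sources differ was not tested. In brain, day 10 replicates 2 and 3 at 205 and 163.5 CPM were above day 4 replicate 3 at 139 CPM. These 2 days were not tested against each other. Sparc read 458, 390.1 and 128 CPM in healthy rats, 679, 191 and 346 CPM at day 4, 403, 390.5 and 275 CPM at day 10 and 708, 856 and 139 CPM at day 31, and overlapped throughout.

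Timp1 was low in plasma, at 1.10, 9.14 and 0 CPM in healthy rats, 21.95, 0 and 20.8 CPM in control rats at day 4, 9.77, 0 and 0 CPM at day 10 and 16.3, 10.7 and 0.426 CPM at day 31. Libraries at 0 stood in the healthy, day 4 and day 10 groups, and 7 of all 21 plasma libraries were at 0. Lum read 26.8, 10.9 and 2.12 CPM in healthy rats, 34.1, 0 and 30.6 CPM at day 4, 26.1, 73.2 and 64.5 CPM at day 10 and 32.5, 10.5 and 31.3 CPM at day 31 (log2 fold change at day 10 2.04, edgeR adjusted p 0.750, higher in 2 of 3). Replicate 2 of day 4 held the only plasma library without Lum.

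Dcn read 67.1, 71.9 and 29.1 CPM in plasma of healthy rats, 418, 115 and 279.5 CPM in control rats at day 4, 138, 202 and 106.5 CPM at day 10 and 342, 132 and 94.6 CPM at day 31. The highest healthy library was below the lowest of the 9 control libraries. The log2 fold change was 2.27 at day 4 (SE 0.55, 4.83-fold, edgeR adjusted p 0.185, 3 of 3) and 1.41 at day 10 (SE 0.54, 2.66-fold, edgeR adjusted p 0.745, 3 of 3). It was 1.76 at day 31 (SE 0.54, 3.39-fold, edgeR adjusted p 0.840, 3 of 3) and 1.81 over all days (SE 0.48, 3.63-fold, edgeR adjusted p 0.335, 9 of 9). These comparisons share the 3 healthy libraries. DESeq2 called Dcn at day 4 (adjusted p 0.00170, in a range over the alternatives of 0.00170 to 0.824), at day 31 (0.0308, range 0.0308 to 1) and over all days (0.00413, range 0.00413 to 0.692).

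With hNSCs, plasma levels of all 10 genes overlapped those of control rats at each day, 0 of 10 against 3.34% of all genes with no overlap and higher and 4.36% lower at day 4, 6.20% and 2.38% at day 10 and 4.60% and 6.57% at day 31. Dcn read 372, 237 and 295 CPM at day 4, 119, 149 and 364 CPM at day 10 and 90.8, 95.1 and 176 CPM at day 31 with hNSCs, all above the healthy libraries. Fn1 read 1379.8, 1339 and 540.4 CPM, 142, 706 and 759 CPM, and 448, 317 and 428 CPM at those days. edgeR called 0 of 10 at day 4 against 0.00679% of all genes, and 0 at day 10, day 31 and over all days against 0, 0 and 0%. None of the set had an unadjusted p under 0.05 in any of them, against 4.27, 4.21, 8.99 and 6.58% of all genes in turn in either direction. DESeq2 called 0 of the set against 5.93, 7.76, 11.3 and 9.48%, and limma 0 against 0.0209, 0, 0.0975 and 0%. The set's median log2 fold change was −0.10 at day 4, 0.46 at day 10, −0.71 at day 31 and −0.00 over all days, beside 0.00, 0.21, −0.10 and 0.01 over all genes. At day 10 all 10 genes had a log2 fold change above 0, from 0.22 to 0.73, and the median of all genes was shifted in the same direction. The lowest adjusted p was 0.517, for Col1a1 at day 31 (edgeR log2 fold change −1.50; 143, 81.6 and 204 CPM with hNSCs against 613, 520.2 and 78.2 CPM in control rats), where control replicate 3 overlapped. Between days, edgeR's adjusted p for a changed hNSCs difference in plasma was at least 0.594 for all 10 genes.

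Among marker lists in plasma, the fibroblast list (12 of 12, Dpt the most abundant) summed to 132, 138 and 95.9 CPM in healthy rats, 470.3, 163.5 and 284 CPM in control rats at day 4, 262.5, 368 and 197 CPM at day 10 and 309, 246 and 214 CPM at day 31. With hNSCs it summed to 402.5, 256 and 243 CPM, 257, 292.5 and 345.5 CPM, and 192, 164.5 and 228 CPM. All 18 stroke libraries were above the 3 healthy ones, as they were for Dcn, and the part of this list in the result was not tested. Healthy, day 4, day 10 and day 31 control means of the liver list (Alb) were 3549, 12127, 9432 and 20320.4 CPM, and of the platelet list (Pf4) 5986, 2093, 9514 and 1502 CPM. Those of the red cell list (Hba2) were 58575, 16966, 150815 and 96283 CPM, with 251277 CPM in hNSCs rats at day 31. Control day 4 replicate 2, low in the fibrillar collagens, had a liver list sum of 125 CPM. The same means were 434, 453, 419 and 406 CPM for microglia and macrophage (Lyve1), 689, 921, 986 and 417 CPM for endothelial cell (Vwf), and 64.2, 188, 75.7 and 90.9 CPM for pericyte and smooth muscle (Anpep). They were 46.7, 123, 73.3 and 145 CPM for astrocyte (Gja1) and 282, 96.9, 215 and 142 CPM for oligodendrocyte (Cnp, with Mog at 0). For T cell (Lck) they were 267, 50.6, 227 and 205 CPM, for skeletal muscle (Mb) 39.8, 36.9, 108 and 88.8 CPM, and for choroid plexus (Ttr, with Clic6 and Kcnj13 at 0) 282, 485, 621 and 1664 CPM. Of the choroid plexus means, Ttr, which is also on the liver list, held 282, 481, 621 and 1664 CPM. Of the ependymal list only Rsph1 was detected, the other 5 genes being at 0. At day 4 the pericyte and smooth muscle list of control rats lay above every healthy library (102 to 328 against 38.7 to 98.2 CPM). Col4a1, Fn1 and Dcn did so too. The red cell, oligodendrocyte and T cell lists lay below every healthy library at that day. The part of these lists in the results was not tested.

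**Figure D3:**
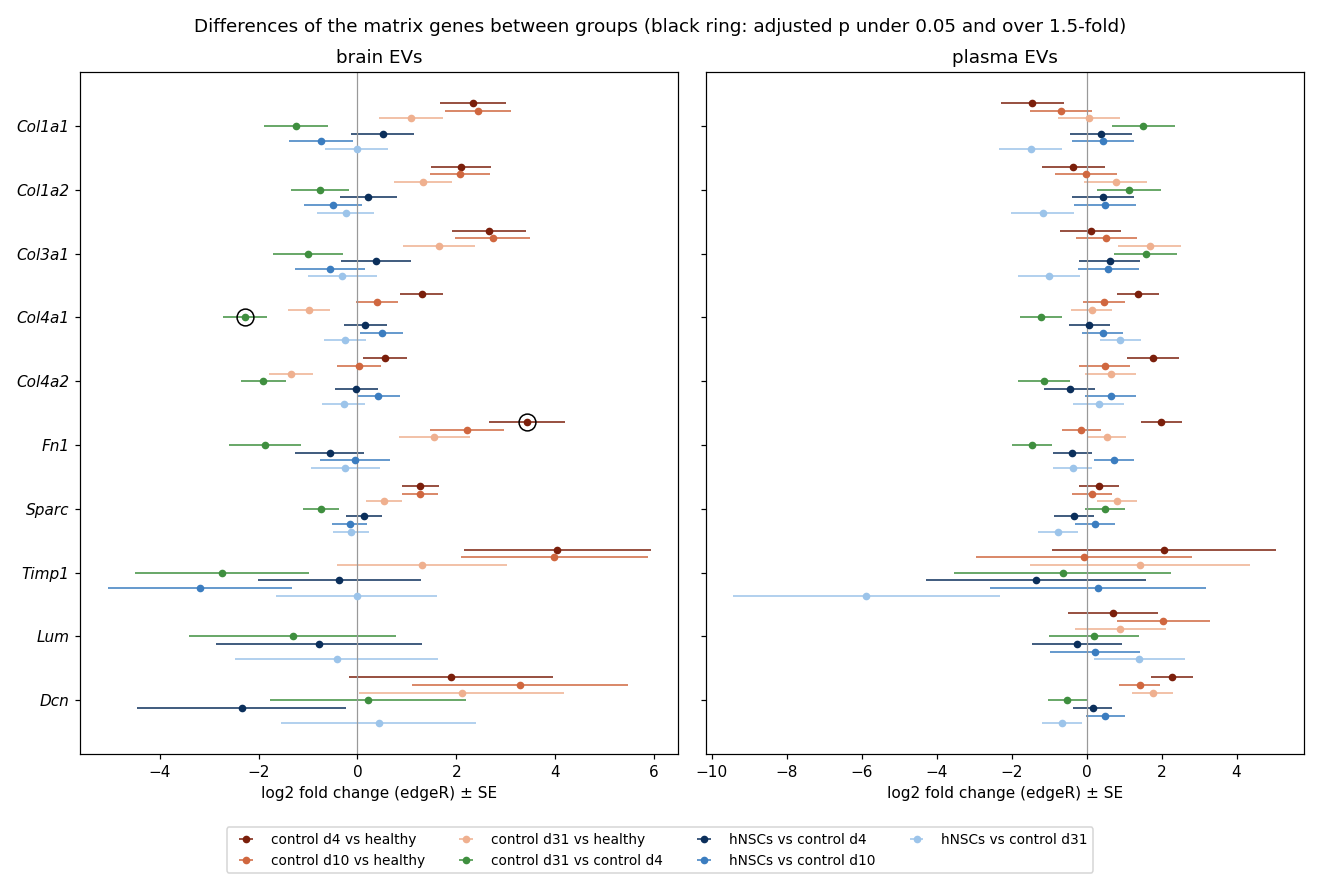
edgeR log2 fold change with SE for each gene of the set (horizontal axis log2 fold change, vertical axis gene) in control against healthy rats at each day, control day 31 against day 4, and hNSCs against control rats, with black rings on called values and genes with a group at 0 left out. The ringed values are brain Fn1 at day 4 (3.42) and brain Col4a1 from day 4 to day 31 (−2.28).

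Other matrix genes were followed in 10 lists, also chosen with earlier results of these data known, with 131 genes tested in brain and 128 in plasma. In brain at day 4 edgeR called 7 of the 131 higher and 0 lower, against 0.992% of all genes called in either direction, with 31 higher and 5 lower at an unadjusted p under 0.05 against 8.49% and 6.41%. DESeq2 called 20 and 1 against 5.83% of all genes, and limma 13 and 0 of 127 against 2.11%. For each comparison below, the shares of all genes at an unadjusted p under 0.05, by DESeq2 and by limma are those given for the set above. For hNSCs in brain at day 10 and over all days, only the lower share at that p is given there. In either direction 1952 and 1118 of 14515 genes had such an edgeR p. The lists' called counts at day 4 and median log2 fold changes were 2 of 14 (0.66) for the TGF-beta pathway, which drives matrix synthesis, 1 of 18 (1.48) for collagen processing and crosslinking, and 1 of 17 (1.41) for matrix glycoproteins. They were 1 of 13 (2.27, or 1.78 with genes at 0 in a group set at their bounds) for matrix proteases, 1 of 5 (2.22) for other small leucine-rich proteoglycans and 1 of 11 (−0.01) for brain proteoglycans. None was called among 12 other basement membrane proteins (median 1.15, 3 higher and 1 lower at an unadjusted p under 0.05, 1 called by DESeq2), 17 other collagens (0.88, 6 and 1, DESeq2 3 higher and 1 lower), 16 matrix receptors (1.01, 4 and 1, DESeq2 2) and 8 other protease inhibitors (1.10, 3 and 0, DESeq2 2) by edgeR. All medians but that of the brain proteoglycans were above the median of 0.05 over all genes.

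The 7 genes called at day 4 came from 6 of the 10 lists. Tgfb1, the ligand, averaged 1.58 CPM in healthy and 47.4 CPM in control rats (log2 fold change 4.76, edgeR adjusted p 0.0363), and Tgfbr1, its receptor, 19.8 and 222 CPM (3.47, adjusted p 0.0133). Bgn, biglycan, a relative of decorin, averaged 7.08 and 107 CPM (edgeR log2 fold change 3.82, adjusted p 0.0196), P4hb, a subunit of collagen prolyl hydroxylase, 38.0 and 175 CPM (2.19, adjusted p 0.0447), and Ncan, neurocan of the brain matrix, 191 and 484 CPM (1.34, adjusted p 0.0170). Spp1, osteopontin, was at 0 in all healthy libraries and 667 ± 153 CPM at day 4 (edgeR adjusted p 0.0202), and Plau, the urokinase protease, at 0 and 19.6 ± 6.77 CPM (adjusted p 0.0272). Each of the 7 was higher in 3 of 3 control libraries than in all healthy ones. None of the 7 was called without control day 4 replicate 1, healthy replicate 1 or healthy replicate 3. Tgfbr1 alone was called without healthy replicate 2, Tgfbr1, Ncan and Spp1 without control day 4 replicate 2, and all but Tgfb1 and P4hb without control day 4 replicate 3, with edgeR adjusted p of 0.0243 to 0.228 over these omissions.

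At day 10 in brain, edgeR called 5 of the 131 list genes higher and 0 lower against 0.544% of all genes, with 31 and 6 at an unadjusted p under 0.05 against 7.54% and 5.22%, where DESeq2 called 11 and 0 against 4.22% and limma 0 against 0%. They were Tgfbr1 (log2 fold change 3.05, adjusted p 0.0347), Bgn (3.43, 0.0445), Spp1 (0 in healthy, 303 ± 349 CPM, 0.0445), Plau (0 in healthy, 16.01 ± 14.98 CPM, 0.0450) and Cst3, the protease inhibitor cystatin C (157 and 703 CPM, 2.17, 0.0450). None of the 5 was called without any single healthy library or without control day 10 replicate 2, and only Tgfbr1 and Cst3 were without control day 10 replicate 3. The edgeR adjusted p ran from 0.00192 to 0.599 over these omissions. At day 31 edgeR called 0 of 131 against 0.00689% of all genes (14 higher and 8 lower at an unadjusted p under 0.05 against 5.35% and 1.96%, DESeq2 6 and 3 against 1.21%, limma 61 and 0 against 57.3%). Over all days it called 2 of 131 higher against 0.276% of all genes (25 and 5 unadjusted against 7.03% and 5.42%, DESeq2 16 and 2 against 4.79%, limma 11 and 0 against 3.82%), namely Tgfbr1 (2.68, adjusted p 0.0497) and Bgn (3.44, adjusted p 0.0438). Without any single healthy library, any single control day 4 library, or control day 31 replicate 1 or 2, neither was called, nor was Bgn without control day 10 replicate 3, with edgeR adjusted p of 0.00633 to 0.259 over the omissions.

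From day 4 to day 31, 4 other collagens fell as Col4a1 did. edgeR called 0 of 131 list genes higher and 5 lower against 0.324% of all genes (4 and 23 at an unadjusted p under 0.05 against 6.52% and 3.04%, DESeq2 0 and 11 against 1.68%, limma 11 and 3 against 28.5%). Of the 5, 4 were among the 17 other collagens, whose median log2 fold change was −1.67 beside 0.11 over all genes and of which 13 had no overlap, all lower, against 10.1% of all genes. 1 was Col16a1, a fibril-associated collagen (1452 to 244 CPM, log2 fold change −2.57, edgeR adjusted p 0.00603). The others were the type V chains Col5a1 (729.8 to 149 CPM, −2.30, adjusted p 0.0134), Col5a3 (382 to 79.2 CPM, −2.27, adjusted p 0.0306) and Col5a2 (−1.997, adjusted p 0.0407 in edgeR), which lies outside the rule for named genes and was chosen after its values were seen. The fifth was Ncan (484 to 157 CPM, −1.62, edgeR adjusted p 0.00778). How the call of Col5a2 depends on single libraries was not assessed, and the omissions below cover the other 4 genes. None of these 4 was called without control day 31 replicate 1 or 3, and only Col16a1 was without control day 4 replicate 1. Without control day 4 replicate 2 only Col16a1 and Ncan were called. The edgeR adjusted p ran from 0.00481 to 0.2645 over the omissions.

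With hNSCs in brain, edgeR called 0 of the 131 list genes at day 4 (4 higher and 4 lower at an unadjusted p under 0.05, DESeq2 0 and 2) and at day 10 (2 and 18, DESeq2 0 and 5). It called 0 at day 31 (0 and 0, DESeq2 0) and over all days (1 and 9, DESeq2 0 and 2), and limma called 0 in each. In plasma edgeR called 0 of 128 in control against healthy rats at day 4 (10 and 4 unadjusted, DESeq2 3 and 7) and day 10 (4 and 4, DESeq2 1 and 7). It called 0 at day 31 (6 and 9, DESeq2 1 and 5) and over all days (7 and 13, DESeq2 3 and 8), with limma at 0 in these. From day 4 to day 31 it also called 0 (1 and 9, DESeq2 5 and 4, limma 0 and 1). With hNSCs in plasma it called 0 at day 4 (1 and 1 unadjusted, DESeq2 4 and 0) and day 10 (3 and 1, DESeq2 8 and 0). It called 0 at day 31 (2 and 9, DESeq2 2 and 8) and over all days (4 and 5, DESeq2 8 and 3), with limma at 0 in each. Ccn1, Ccn2, Mmp3, Podn and Slco1a4 were not in the table under these symbols.

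Genes closest to the set across libraries were found by Pearson's r to the mean of the members' centred log2 CPM over 21 libraries, as a description. In brain they were Aebp1 (r = 0.94), a collagen-binding matrix protein, Apoe (0.93), Ctsd (0.93), LOC108349606 (0.93), Tmcc3 (0.93), Rplp0 (0.92), Pabpc1 (0.92), Ftl1 (0.91), Tln1 (0.91) and Gnai2 (0.91), n = 21 libraries. In plasma they were Col5a1 (r = 0.89), Sepp1 (0.86), Sfrp1 (0.85), C1s (0.85), C4b (0.84), Tshz2 (0.84), Timp2 (0.83), Rcan2 (0.82), Igfbp4 (0.82) and Morf4l2 (0.82), n = 21 libraries. No gene was on both lists, and the libraries share their groups and differ in depth. Col5a1 and Timp2 are themselves matrix genes, a fibrillar collagen chain and a metalloproteinase inhibitor.

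Of the miR-29 family, which is known to bind collagen transcripts, only the 3p arms were followed here. Their 3 mature forms were measured in the same EVs. They share the seed, bases 2 to 8, in capitals below as deposited by the authors and identical in RefSeq (build GRCr8), which is why they are shown together.
rno-miR-29a-3p: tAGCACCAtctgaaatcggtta
rno-miR-29b-3p: tAGCACCAtttgaaatcagtgtt
rno-miR-29c-3p: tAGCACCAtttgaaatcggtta
miR-29a and miR-29c differ by the substitution C10T, counted from the 5′ end of miR-29a. Their ratio was 1.01 to 1.03 in every brain library and 1.01 to 1.04 in every plasma library. Whether reads of the pair were kept apart in counting was not tested, so the 2 may not be separate measurements. miR-29c to miR-29b was 4.04 to 10.1 in brain. In brain EVs the median over 21 libraries was 31186.5 CPM for miR-29a, 5384 CPM for miR-29b and 31708 CPM for miR-29c, and by mean CPM they ranked 9, 31 and 8 of 699 known miRNAs. In plasma the medians were 7430.2, 1011 and 7739.8 CPM, and the ranks by mean CPM 27, 61 and 25. The 3 forms were thus abundant in both sources.

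edgeR called 0 of the 3 in brain, where it called 15.1% of 350 tested miRNAs in control rats at day 4, 20.0% at day 10, 24.9% at day 31, 19.4% over all days and 0% with hNSCs over all days. The only unadjusted p under 0.05 was that of miR-29b at day 4, where 35.1% of all miRNAs had such a p, at 4526, 2491 and 5394 CPM in healthy and 5093, 6529.9 and 7244 CPM in control rats. Healthy replicate 3 was above the lowest control library, so the groups overlapped. The log2 fold change was 0.61 (SE 0.27, edgeR adjusted p 0.107, higher in 2 of 3), limma on log2(TPM + 1) called it (adjusted p 0.0288, with 15.8% of all miRNAs called), and edgeR called it without healthy replicate 3 (adjusted p 0.0362, with 17.6% called), in a range over the alternatives of 0.0288 to 0.45. In plasma edgeR called 0 of the 3, with 0 at an unadjusted p under 0.05 and 0 by limma, where it called 0.324% of 309 miRNAs at day 4, 0% at day 10, 0% at day 31, 0% over all days and 0% with hNSCs over all days. At day 4 15.9% of the 309 had an unadjusted p under 0.05. At that day the plasma control libraries of all 3 forms lay above every healthy one, 3 of 3 against 11.7% of all miRNAs, with log2 fold changes of 0.41 for miR-29a, 0.44 for miR-29b and 0.40 for miR-29c (edgeR adjusted p 0.556, 0.452 and 0.562). miR-29a read 9501.9, 9008 and 8073 CPM there against 6794, 5679.7 and 7579 CPM in healthy rats. At day 31 miR-29a and miR-29c did not overlap, both higher, 2 of 3 against 7.77% of all miRNAs (log2 fold change 0.58 and 0.57, edgeR adjusted p 0.377 and 0.383). Here and at day 4, miR-29a and miR-29c may not be separate measurements, as noted. No relation between miR-29 and the collagens was tested.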

How the data were processed

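The authors prepared mRNA libraries with a stranded total RNA kit and aligned reads with Bowtie2; the submitters' notes give the build as Rnor_6.0. The authors deposited counts per gene, used here for the tests, and FPKM from StringTie, in which a gene is the sum of its transcripts. The authors deposited miRNA UMI counts and TPM, which scales UMI counts to a common total, from reads of 18 to 30 nt. Entries not named as an annotated gene, which held the rest of the counts, stayed out of library sizes and tests. Strand and count settings are not given in the sources used here.

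Tests were run on all genes of a tissue with edgeR 4.0.16 (filterByExpr, TMM, quasi-likelihood with robust spread, a model with all 7 groups) in R 4.3.3, with DESeq2 1.42.0 and limma 3.58.1 as alternatives; Python 3.11.15, numpy 2.4.6, pandas 2.3.3 and matplotlib 3.10.9 were also used. limma on log2(FPKM + 1) took genes of at least 0.1 FPKM in 3 libraries. P-values were adjusted by Benjamini-Hochberg over all genes tested. The procedure was first checked on simulated counts.

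Members and lists were chosen with earlier results of these data known. Named genes are all 10 members; for each list and comparison, up to 3 called genes with the largest log2 fold change whose libraries do not overlap; the most abundant gene of each marker list and its genes at 0; the 10 genes closest to the members' mean; and the 3 miR-29 miRNAs. Rats of different groups share only a replicate number. Deviations from group means correlated above 0.1 between libraries of the same number in all 3 pairs only for brain hNSCs against control at day 31 (0.254, 0.28 and 0.33).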

Additional observations from a re-analysis of the deposited data

How the results depend on the processing

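No direction of the 32 values of single genes that were followed was reversed: of 559 values under other settings, 473 kept their side of the threshold, 14 lost a call and 72 gained one. Only brain Fn1 at day 4 and brain Col4a1 from day 4 to day 31 were called in the main fit, so all 14 lost calls were theirs. In brain at day 4 against healthy rats, where edgeR called 1 gene of the set, DESeq2 called 5, limma on log2(FPKM + 1) 5 and on log2(FPKM + 0.1) 7 (5.83, 2.11 and 3.54% of all genes). There edgeR called 0 without a filter on low counts (0.806%), 0 with unannotated rows kept (0.697%), and 6 with only the libraries of the groups compared (4.49%); leaving out each library gave 0 to 1. At day 10 (0 called), DESeq2 called 6 (4.22% of all genes) and leaving out each library gave 0 to 4 (4 with 2.56%). At day 31 (0 called), limma called 5 with a pseudocount of 1 and 6 with 0.1 (57.3 and 81.7% of all genes), with the median of all genes shifted by 0.69 and 1.74 log2, and leaving out each library gave 0 to 0. Over all days (0 called), DESeq2 called 6, limma 5 and 6 (4.79, 3.82 and 7.49% of all genes), and leaving out each library gave 0 to 5 (5 with 1.92%). From day 4 to day 31 (1 called), DESeq2 called 2, limma 0 and 0 (1.68, 28.5 and 18.6% of all genes), and edgeR without the 5 libraries with the fewest annotated counts, an alternative chosen after seeing the data, 0 (0.720%); leaving out each library gave 0 to 2 (2 with 0.223%). In plasma (0 called throughout), DESeq2 called 2 at day 4, 1 at day 31 and 1 over all days (6.16, 4.48 and 6.15% of all genes). Of the miR-29 family in brain (0 called), limma on log2(TPM + 1) called 1 (15.8% of all miRNAs at day 4), and leaving out each library gave 0 to 1 (1 with 17.6%). The cause was not tested.

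With the replicate block, which treats equal replicate numbers as pairs, edgeR called 5 genes of the set in brain at day 4 (1.52% of all genes) and 1 miR-29 miRNA in brain (16.3% of all miRNAs), and no other count moved. Over 14 pairs of groups, the correlation of same-numbered libraries ran from −0.255 to 0.33.

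With 3 rats a group and 569136 annotated counts in the shallowest brain library, Timp1, Lum and Dcn rested on few counts there. Where leaving out a library left 2 in a group, these were assumed to vary like the other groups.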
